A study of Mus musculus with 17 samples.

Results

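The transcripts of 9 genes that mark injury and repair of the kidney tubule were followed in the renal cortex 4 h after ischemia–reperfusion injury (IRI). The genes were Havcr1, which encodes KIM-1, Lcn2, which encodes NGAL, Clu, Spp1, Timp1, Cp, Sox9, Sox4 and Vim. They were taken by name, as established markers other than keratins, from the 38293 genes of the deposited table, and each matched 1 row. All 9 were among the 12608 genes kept for testing, which exceeded an RPKM of 1 in at least 4 kidneys. RPKM is the number of reads per kilobase of gene, scaled to the size of the library, and levels are given as its log2. The table ends at −3.32, which is where any RPKM of up to 0.1 is placed.

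The samples were cortices of 17 male mice, C57BL/6 by the labels and on a C57Bl6/J background by the study's methods, 5 labelled CCN2 KO IRI, 4 CCN2 KO sham, 4 WT IRI and 4 WT sham. According to the study's methods, mice with a floxed gene for CCN2 were crossed with ROSA26CreERT2 mice, in which a tamoxifen-activated Cre is expressed throughout the body. At 12 to 14 weeks of age they received 4 injections of tamoxifen in corn oil (CCN2 KO) or of corn oil alone (WT), and 14 days later both renal pedicles were clamped for 25 min or the same surgery was done without clamping (sham). Loss of CCN2 and exposure to tamoxifen therefore cannot be told apart. The names CCN2 KO and WT are used here as labels, because Ctgf, the gene for CCN2, averaged 4.23 ± 0.51 log2 RPKM (SD, n = 5) in CCN2 KO IRI against 4.58 ± 0.51 (n = 4) in WT IRI kidneys, and 3.41 ± 0.58 in CCN2 KO sham against 3.69 ± 0.71 in WT sham kidneys (n = 4 each). Neither difference passed (limma, adjusted p = 0.525 and 0.777), and in both the kidneys of the labels overlapped. Whether the reads counted for Ctgf come from the deleted part of the gene was not examined. CCN2 mRNA was also measured in the study by quantitative PCR, which is not analysed here.

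Libraries of the same group correlated at 0.915 to 0.961 across genes. The depth per library is unknown, because the deposited values are normalized. The proximal tubule marker Slc34a1, a phosphate transporter, averaged between 10.95 and 11.27 log2 RPKM in the 4 groups, so that the main cell type of the labelled tissue was present in each. Values of whole tissue do not separate fewer cells of a type from less RNA per cell. All IRI kidneys have titles that begin with 33, whereas each sham group has both prefixes, 32 and 33, and the labels do not say what the prefix stands for.

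When tubule cells are injured they lose their specialised transport functions, and surviving cells take on a repair state. In that state they produce proteins that are nearly absent from the healthy proximal tubule. KIM-1 is a receptor for phosphatidylserine on apoptotic cells, whose outer part is shed into the urine, and NGAL is a small secreted protein that binds bacterial siderophores and so withholds iron. Clusterin (Clu) is a secreted chaperone, osteopontin (Spp1) an adhesive phosphoprotein that binds integrins, TIMP-1 (Timp1) an inhibitor of matrix metalloproteinases and ceruloplasmin (Cp) a copper-carrying ferroxidase of the acute phase. SOX9 and SOX4 are transcription factors of progenitor and repairing epithelium. Vimentin (Vim) is the intermediate filament of mesenchymal and endothelial cells, and dedifferentiated tubule cells also acquire it.

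Promoters, taken as the 250 bases before and 50 bases after a transcription start, are available from RefSeq for 7 of the 9 genes, with 11 starts in all. Clu and Sox9 have no entry. Promoters are shown for members that rose after IRI and for Vim, which differed between the labels after IRI, with motif matches in capitals. Where a gene has several starts, only a start with a match is shown. The motifs were those of AP-1, CRE, STAT, TEAD, TATA and a loose NF-kB core, each searched on both strands. TATA is a general promoter element rather than the motif of an injury-activated factor. Sequences are on build GRCm38.p6 and are written 5′ to 3′ on the strand of the gene.
Havcr1, start 3, chr11:46750918-46751217, plus strand, AP-1: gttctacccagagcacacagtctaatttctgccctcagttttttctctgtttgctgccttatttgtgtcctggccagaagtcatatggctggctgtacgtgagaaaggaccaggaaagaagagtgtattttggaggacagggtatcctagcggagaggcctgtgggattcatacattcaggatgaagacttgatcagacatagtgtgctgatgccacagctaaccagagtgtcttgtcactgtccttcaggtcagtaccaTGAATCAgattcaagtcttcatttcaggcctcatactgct
Lcn2, chr2:32387690-32387989, minus strand, NF-kB core: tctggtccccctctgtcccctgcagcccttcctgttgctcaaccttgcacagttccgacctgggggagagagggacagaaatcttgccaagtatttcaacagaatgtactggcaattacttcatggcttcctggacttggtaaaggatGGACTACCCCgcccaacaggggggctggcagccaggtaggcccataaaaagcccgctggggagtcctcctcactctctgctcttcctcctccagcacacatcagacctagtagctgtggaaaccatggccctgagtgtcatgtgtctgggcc
Spp1, start 1, chr5:104434861-104435160, plus strand, TATA: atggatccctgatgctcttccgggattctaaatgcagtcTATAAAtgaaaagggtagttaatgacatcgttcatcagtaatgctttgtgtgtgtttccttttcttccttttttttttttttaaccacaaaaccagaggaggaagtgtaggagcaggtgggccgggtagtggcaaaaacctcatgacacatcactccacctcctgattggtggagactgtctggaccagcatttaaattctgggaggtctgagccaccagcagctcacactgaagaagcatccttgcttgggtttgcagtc
Sox4, chr13:28953650-28953949, minus strand, TEAD: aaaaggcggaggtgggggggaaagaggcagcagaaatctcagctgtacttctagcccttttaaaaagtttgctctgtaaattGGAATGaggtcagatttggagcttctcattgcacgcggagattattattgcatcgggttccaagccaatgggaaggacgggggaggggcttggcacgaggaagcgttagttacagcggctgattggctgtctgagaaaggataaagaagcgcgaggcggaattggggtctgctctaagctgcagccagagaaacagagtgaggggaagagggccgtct
Timp1, chrX:20869916-20870215, plus strand, TEAD and then overlapping NF-kB core matches: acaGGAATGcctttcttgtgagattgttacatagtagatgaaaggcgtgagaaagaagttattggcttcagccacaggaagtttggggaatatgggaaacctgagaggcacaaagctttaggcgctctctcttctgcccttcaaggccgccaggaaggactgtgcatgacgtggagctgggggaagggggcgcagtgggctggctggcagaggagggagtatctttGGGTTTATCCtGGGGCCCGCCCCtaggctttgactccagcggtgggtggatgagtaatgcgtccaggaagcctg
Vim, chr2:13574061-13574360, plus strand, overlapping NF-kB core matches and then TATA: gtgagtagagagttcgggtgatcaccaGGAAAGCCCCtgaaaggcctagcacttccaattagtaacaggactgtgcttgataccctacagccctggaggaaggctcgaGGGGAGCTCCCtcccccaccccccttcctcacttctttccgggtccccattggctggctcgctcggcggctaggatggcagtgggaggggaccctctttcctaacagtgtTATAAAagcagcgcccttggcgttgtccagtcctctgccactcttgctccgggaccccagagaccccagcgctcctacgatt

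The AP-1 letters TGANTCA, whose middle base was left free, occurred at start 3 of Havcr1 (as TGAATCA) and start 1 of Cp (as TGATTCA). They occurred in 7.81% of all 32851 promoters of the table. Starts 1 and 2 of Havcr1 held none of the motifs, and start 2 of Cp held no AP-1 letters. TEAD letters, GGAATG, occurred in Sox4, Timp1 and Cp (14.7% of all promoters). The TATA letters TATAAA occurred at start 1 of Spp1, in Vim and at start 2 of Cp (13.6%). They begin at base −211 relative to the start in Spp1 and at −32 in Vim. The NF-kB core, a loose pattern present in 50.8% of all promoters, was found in Lcn2, Vim, Timp1 and Cp. No promoter of these genes held the CRE letters TGACGTCA, which 1.79% of all promoters hold. Nor did any hold the STAT letters TTCNNNGAA (8.3%). Matches overlapped only other matches to the same motif. The Havcr1 match begins 10 bases after its start, and the Lcn2 match 102 bases before it. No motif was common to all members that rose after IRI and have an entry. Lcn2 and Timp1 shared the NF-kB core, and Sox4 and Timp1 shared the TEAD letters. These are matches of letters only.

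Of the 9 markers, 7 rose after IRI under both labels, namely Havcr1, Lcn2, Clu, Spp1, Timp1, Sox9 and Sox4, and none fell. Among all genes, 14.3% were called higher and 13.2% lower in CCN2 KO IRI against CCN2 KO sham kidneys, and 19.5% higher and 20.3% lower in WT IRI against WT sham kidneys (limma, Benjamini-Hochberg adjusted p under 0.05). The median log2 difference of the 9 markers was 1.05 in CCN2 KO and 1.77 in WT kidneys, beside −0.02 in CCN2 KO and −0.05 in WT kidneys over all genes. Havcr1, Lcn2, Sox9 and Timp1 had at most 2 of 4 kidneys above an RPKM of 1 in each sham group, so that they met the filter chiefly through the IRI groups. With every gene of the table in the fit, 6 of the 9 were called in CCN2 KO and 5 in WT kidneys. IRI and sham kidneys had separate ranges for 7 of the 9 markers in CCN2 KO and for 5 of 9 in WT kidneys, beside 20.7% of all genes in CCN2 KO and 37.7% in WT kidneys.

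**Figure D1:**
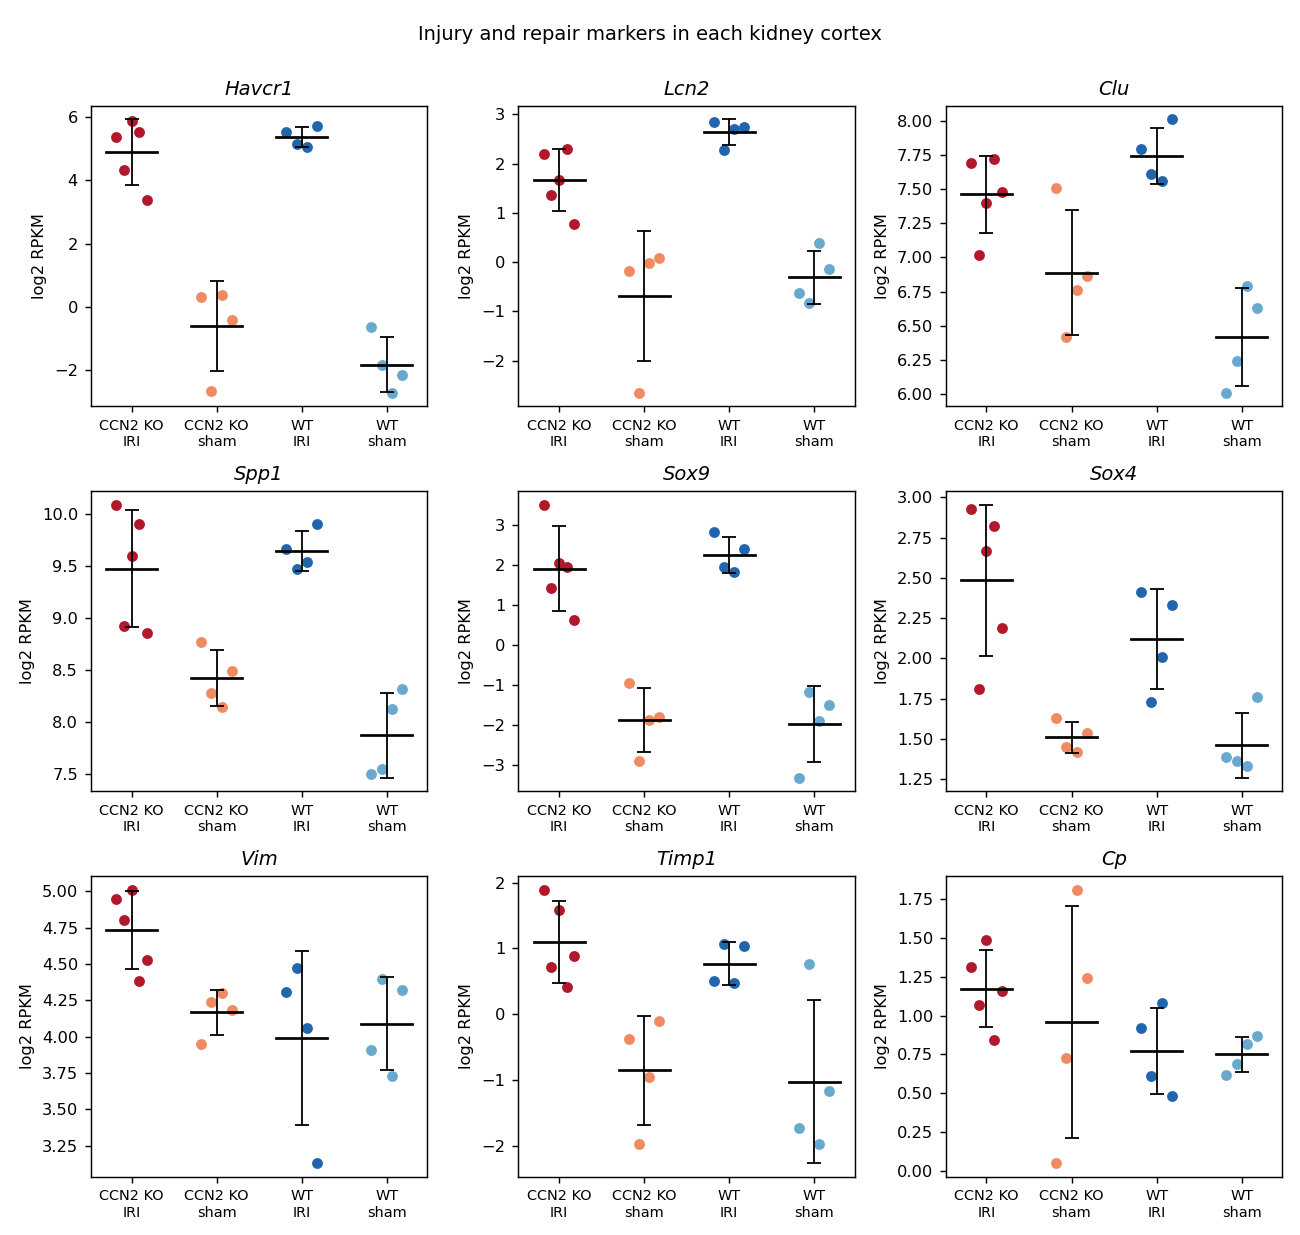
Log2 RPKM of the 9 markers, 1 panel each, in every kidney of the 4 groups (points, 5 CCN2 KO IRI, 4 CCN2 KO sham, 4 WT IRI, 4 WT sham), with the group mean (line) and SD (bar). Havcr1, Lcn2, Spp1 and Sox9 are higher in every IRI kidney than in every sham kidney, while the WT groups of Vim and Cp overlap.

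Havcr1 (chromosome 11, 46735080 to 46779578, plus strand, GRCm38) had the widest difference. In CCN2 KO IRI kidneys it measured 5.37, 4.31, 5.87, 5.54 and 3.38 log2 RPKM, against 0.31, −2.66, 0.39 and −0.42 in CCN2 KO sham kidneys. In WT IRI kidneys it measured 5.54, 5.14, 5.04 and 5.71, against −0.64, −1.82, −2.70 and −2.14 in WT sham kidneys. Every IRI kidney lay far above every sham kidney, and the sham kidneys were the more scattered. The log2 difference was 5.49 (SE 0.59, limma adjusted p = 1.33e-05) in CCN2 KO and 7.18 (SE 0.62, adjusted p = 5.29e-07) in WT kidneys. On a linear scale these are 44.9-fold (95% confidence interval 18.9 to 107) in CCN2 KO and 145-fold (58.3 to 361) in WT kidneys. By log2 difference Havcr1 ranked 3rd of 12608 genes in CCN2 KO and 5th in WT kidneys. After addition of a pseudocount of 1 to RPKM the log2 differences were 4.11 in CCN2 KO and 5.00 in WT kidneys.

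Lcn2 (chromosome 2, 32384633 to 32388252, minus strand) changed less and from a similarly low level. CCN2 KO IRI kidneys had 2.20, 1.37, 1.67, 2.30 and 0.77 log2 RPKM, against −0.19, −2.65, −0.01 and 0.09 in CCN2 KO sham kidneys. WT IRI kidneys had 2.85, 2.27, 2.71 and 2.74, against −0.63, −0.83, 0.38 and −0.15 in WT sham kidneys. The groups were apart under both labels, and CCN2 KO sham kidney 2 was far below its group. On the log2 scale the difference was 2.36 (SE 0.47, limma adjusted p = 0.00177), or 5.12-fold, in CCN2 KO and 2.95 (SE 0.49, adjusted p = 0.000205), or 7.75-fold, in WT kidneys. With a pseudocount of 1 they were 1.29 in CCN2 KO and 1.99 in WT kidneys.

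Neutrophils, which store NGAL in their granules, also had markers that moved with IRI. Of 7 neutrophil markers 3 were kept, S100a8, S100a9 and Retnlg. S100a8 alone was called higher in CCN2 KO IRI against CCN2 KO sham kidneys (log2 difference 3.50, limma adjusted p = 0.0038), whereas all 3 were called in WT IRI against WT sham kidneys. Among all genes 14.3% were called higher in CCN2 KO and 19.5% in WT kidneys. In CCN2 KO sham kidneys S100a8, S100a9 and Retnlg averaged −1.83, 0.07 and −0.22 log2 RPKM, and in WT sham kidneys −1.77, −1.11 and −2.24. They thus met the filter chiefly or in part through the IRI groups, and the counts are a description. The summed RPKM of the list was 6.66 to 12.6 in CCN2 KO IRI against 2.15 to 5.30 in CCN2 KO sham kidneys, and 8.85 to 14.8 in WT IRI against 1.04 to 3.44 in WT sham kidneys. Ly6g, the defining marker, averaged −3.32, the lowest value listed, in all groups but CCN2 KO IRI, where it averaged −2.89, and Mpo averaged −3.32 in both IRI groups. The receptor genes Csf3r and Cxcr2, too low to be tested, also stood higher in IRI kidneys. Csf3r averaged −0.35 log2 RPKM in CCN2 KO IRI against −1.30 in CCN2 KO sham kidneys, and −0.22 in WT IRI against −1.20 in WT sham kidneys. Cxcr2 averaged −1.54 in CCN2 KO IRI against −2.59 in CCN2 KO sham kidneys, and −2.58 in WT IRI against −3.06 in WT sham kidneys. The part of neutrophils in the Lcn2 difference was not tested.

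Spp1 and Clu were the most abundant of the 9 per length, in sham kidneys too. Spp1 (chromosome 5, 104435118 to 104441050, plus strand) had 10.09, 8.92, 9.60, 9.90 and 8.85 log2 RPKM in CCN2 KO IRI kidneys, against 8.77, 8.28, 8.14 and 8.49 in CCN2 KO sham kidneys. It had 9.66, 9.47, 9.54 and 9.90 in WT IRI kidneys, against 7.50, 7.54, 8.12 and 8.31 in WT sham kidneys. The margin between IRI and sham was narrow under the CCN2 KO label, where kidney 5 of the IRI group was just above kidney 1 of the sham group. The log2 difference was 1.05 (SE 0.24, limma adjusted p = 0.00487), or 2.07-fold, in CCN2 KO and 1.77 (SE 0.26, adjusted p = 5.78e-05), or 3.41-fold, in WT kidneys.

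Clu (chromosome 14, 65968483 to 65981547, plus strand) had 7.69, 7.02, 7.40, 7.72 and 7.48 log2 RPKM in CCN2 KO IRI kidneys, against 7.51, 6.42, 6.76 and 6.86 in CCN2 KO sham kidneys. WT IRI kidneys had 7.79, 7.61, 7.56 and 8.01, against 6.01, 6.24, 6.79 and 6.63 in WT sham kidneys. The CCN2 KO groups overlapped through sham kidney 1, which was above 3 of the 5 IRI kidneys, and the WT groups did not overlap. The log2 difference was 0.58 (SE 0.20, limma adjusted p = 0.045) in CCN2 KO and 1.32 (SE 0.21, adjusted p = 0.000157) in WT kidneys. The CCN2 KO call is fragile. It was lost without any 1 of CCN2 KO IRI kidneys 1, 3, 4 or 5, CCN2 KO sham kidneys 2, 3 or 4, or WT IRI kidneys 1, 2 or 3, with log2 differences of 0.42 to 0.59 and adjusted p up to 0.166, and in an exact permutation test (p = 0.0635, two-sided). Other losses were with every gene in the fit (limma adjusted p = 0.185), with no trend in the prior variance (0.0583) and with only the CCN2 KO groups in the fit (0.0785).

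Timp1 (chromosome X, 20870166 to 20874735, plus strand) was among the least abundant. CCN2 KO IRI kidneys had 1.89, 0.71, 1.58, 0.41 and 0.89 log2 RPKM, against −0.38, −1.97, −0.96 and −0.10 in CCN2 KO sham kidneys. WT IRI kidneys had 0.51, 1.07, 0.47 and 1.03, against −1.73, 0.76, −1.97 and −1.16 in WT sham kidneys. The WT groups overlapped because WT sham kidney 2 was above 2 of the 4 IRI kidneys. IRI and sham differed by 1.95 on the log2 scale (SE 0.50, limma adjusted p = 0.00916), or 3.86-fold, in CCN2 KO and 1.80 (SE 0.53, adjusted p = 0.0125), or 3.48-fold, in WT kidneys. With a pseudocount of 1 they were 1.0 in CCN2 KO and 0.78 in WT kidneys, and with every gene in the fit the WT difference had an adjusted p of 0.0588. In an exact permutation test the WT difference had p = 0.0857, where the smallest possible is 0.0286.

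Cp (chromosome 3, 19957054 to 20009145, plus strand), by contrast, was not called. It had 1.31, 1.07, 1.49, 0.84 and 1.16 log2 RPKM in CCN2 KO IRI kidneys, against 0.05, 0.73, 1.81 and 1.24 in CCN2 KO sham kidneys. It had 0.92, 0.61, 1.08 and 0.48 in WT IRI kidneys, against 0.62, 0.69, 0.82 and 0.87 in WT sham kidneys. The IRI kidneys lay within or close to the range of the sham kidneys under both labels. Its log2 difference was 0.22 (95% confidence interval −0.34 to 0.77, limma adjusted p = 0.574) in CCN2 KO and 0.02 (−0.56 to 0.61, adjusted p = 0.959) in WT kidneys, so that changes of up to 1.71-fold in CCN2 KO and 1.52-fold in WT kidneys are within the intervals.

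Both transcription factors rose. Sox9 (chromosome 11, 112782224 to 112787760, plus strand) had 3.52, 1.43, 2.07, 1.95 and 0.62 log2 RPKM in CCN2 KO IRI kidneys, against −0.95, −2.90, −1.86 and −1.79 in CCN2 KO sham kidneys. It had 2.84, 1.96, 1.84 and 2.41 in WT IRI kidneys, against −3.32, −1.16, −1.90 and −1.50 in WT sham kidneys. No sham kidney reached an RPKM of 1, and 1 WT sham kidney was at the lowest value listed. This gave a log2 difference of 3.79 (SE 0.53, limma adjusted p = 0.000131), or 13.9-fold, in CCN2 KO and 4.23 (SE 0.56, adjusted p = 2.44e-05), or 18.8-fold, in WT kidneys. These ranked 10th of all genes in CCN2 KO and 38th in WT kidneys, and with a pseudocount of 1 they were 1.93 in CCN2 KO and 2.18 in WT kidneys.

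Sox4 (chromosome 13, 28948919 to 28953713, minus strand) was present in sham kidneys and changed less. CCN2 KO IRI kidneys had 2.93, 1.81, 2.67, 2.82 and 2.19 log2 RPKM, against 1.63, 1.45, 1.42 and 1.54 in CCN2 KO sham kidneys. WT IRI kidneys had 2.41, 1.73, 2.01 and 2.33, against 1.39, 1.36, 1.33 and 1.76 in WT sham kidneys. The CCN2 KO groups were apart, while the highest WT sham kidney exceeded the lowest WT IRI kidney. The log2 difference was 0.97 (SE 0.20, limma adjusted p = 0.00232) in CCN2 KO and 0.66 (SE 0.21, adjusted p = 0.0204) in WT kidneys. The WT call was lost without WT IRI kidney 1 (log2 difference 0.56, adjusted p = 0.0687), WT IRI kidney 4 (0.59, 0.0591) or WT sham kidney 3 (0.62, 0.0501), with sham kidneys of title prefix 33 only (0.58, 0.134) and with every gene in the fit (0.66, 0.0807). Its exact permutation p was 0.0571.

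Vim (chromosome 2, 13573927 to 13582826, plus strand) was not called after IRI under either label. CCN2 KO IRI kidneys had 4.95, 4.80, 5.01, 4.38 and 4.53 log2 RPKM, against 3.95, 4.24, 4.30 and 4.18 in CCN2 KO sham kidneys. WT IRI kidneys had 4.31, 4.47, 4.06 and 3.13, against 3.91, 4.40, 3.73 and 4.32 in WT sham kidneys. Every CCN2 KO IRI kidney was above every CCN2 KO sham kidney, whereas the WT groups overlapped and WT IRI kidney 4 was the lowest of all 17. The log2 difference was 0.56 (SE 0.22, limma adjusted p = 0.0708) in CCN2 KO and −0.10 (95% confidence interval −0.60 to 0.40, adjusted p = 0.764) in WT kidneys. The CCN2 KO difference passed without WT IRI kidney 4 (adjusted p = 0.0157), with only the CCN2 KO groups in the fit (0.0208), with sample weights (0.0375) and in an exact permutation test (unadjusted p = 0.0159).

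**Figure D2:**
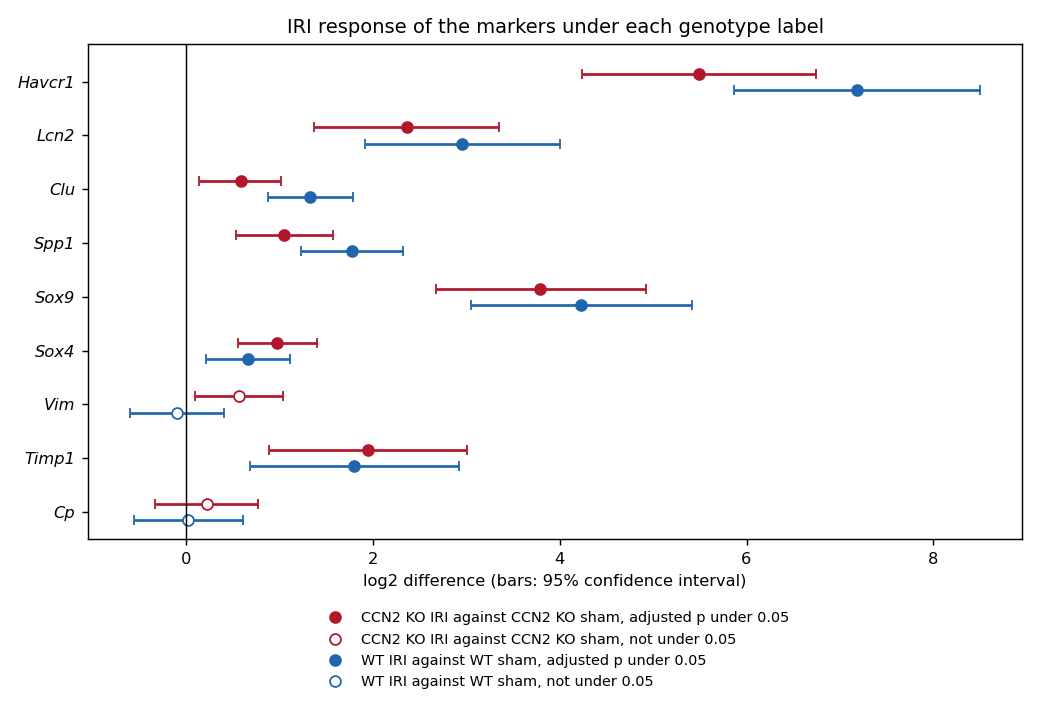
Log2 difference of IRI against sham for the 9 markers (x axis) in CCN2 KO (red) and WT kidneys (blue), with 95% confidence intervals from limma and filled points where the adjusted p was under 0.05. Havcr1 differs most, by 5.49 in CCN2 KO and 7.18 in WT kidneys, and both intervals of Cp include 0.

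With sham kidneys of title prefix 33 alone, all 7 markers remained called in CCN2 KO IRI against CCN2 KO sham kidneys, and all but Sox4 in WT IRI against WT sham kidneys. Havcr1 then differed by 4.91 on the log2 scale in CCN2 KO and by 7.78 in WT kidneys, Sox9 by 3.74 in CCN2 KO and 3.96 in WT kidneys, and Lcn2 by 1.63 in CCN2 KO and 2.53 in WT kidneys. With all sham kidneys, differences of similar size were found in genes of unlike level. Spp1, at 8.42 log2 RPKM in CCN2 KO sham kidneys, differed by 1.05 after IRI, and Sox4, at 1.51, by 0.97.

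Comparison of CCN2 KO IRI with WT IRI kidneys asked whether the markers differed between the labels after IRI. Vim was the only one of the 9 to be called, and it was higher in CCN2 KO IRI kidneys, beside 7.19% of all genes called higher and 5.07% called lower. Its mean was 4.73 ± 0.27 log2 RPKM (SD, n = 5) in CCN2 KO IRI and 3.99 ± 0.60 (n = 4) in WT IRI kidneys. This is a log2 difference of 0.74 (SE 0.22, limma adjusted p = 0.0399, exact permutation p = 0.0238), or 1.67-fold with a 95% confidence interval of 1.20 to 2.32. The groups overlapped, and the call rested on single kidneys. It was lost without CCN2 KO IRI kidney 1, 2, 3 or 5 or WT IRI kidney 3 (log2 difference 0.67 to 0.79, limma adjusted p = 0.0582 to 0.0929), and without WT IRI kidney 4, the lowest, the log2 difference was 0.45 (adjusted p = 0.141). With only these groups in the fit the adjusted p was 0.0739.

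Markers of cell types that normally contain vimentin stood higher in the same kidneys. Of 7 endothelial markers 4 were called higher in CCN2 KO IRI kidneys than under the WT label, and 0 lower, with a median log2 difference of 0.72. Among all genes 7.19% were called higher and 5.07% lower, and the other cell type lists in this comparison are read beside the same shares. Pecam1, an adhesion molecule of endothelium, averaged 3.07 log2 RPKM in CCN2 KO IRI and 1.97 in WT IRI kidneys (limma adjusted p = 0.0109). The summed endothelial RPKM was 50.2 to 72.3 in CCN2 KO IRI and 16.7 to 51.8 in WT IRI kidneys. Of 8 fibroblast and pericyte markers tested 4 were called higher and 0 lower, with a median of 0.87. Col1a1, a chain of type I collagen, averaged 1.73 log2 RPKM in CCN2 KO IRI and 0.02 in WT IRI kidneys (adjusted p = 0.0143), although the summed RPKM of that list overlapped, at 56.0 to 87.3 in CCN2 KO IRI and 54.1 to 68.0 in WT IRI kidneys. Lum alone of the 9 fibroblast genes listed was too low to be tested. Plvap, a component of endothelial diaphragms, averaged 4.53 log2 RPKM in CCN2 KO IRI and 3.15 in WT IRI kidneys (adjusted p = 0.0233). Against sham, no endothelial or fibroblast marker was called higher after IRI under either label. In WT IRI against WT sham kidneys 5 endothelial (median −0.81) and 2 fibroblast markers (−0.63) were called lower, beside 20.3% of all genes. In CCN2 KO IRI against CCN2 KO sham kidneys the counts were 1 (−0.29) and 0 (0.11), beside 13.2%. Some markers of other cell types, among them tubule segments, were higher as well. Markers called higher were therefore not limited to the endothelial and fibroblast lists. Called higher were 3 of 6 markers of the thick ascending limb (median log2 difference 0.64, with Umod at 1.36), 2 of 5 of the distal convoluted tubule (0.51), 3 of 15 of the proximal tubule (0.27, with Hnf4a at 0.89) and 1 of 6 tested of macrophages and monocytes (0.68, with C1qa at 1.25), and none of these was called lower. For the proximal tubule and for macrophages and monocytes, the counts are within a few genes of what the 7.19% share would give. They are no result about those lists. Some members of the lists named here had negative differences that were not called. Among them were Cldn10 (−0.31) and Cldn16 (−0.21) of the thick ascending limb and Cd68 (−0.09) and Csf1r (−0.18) of macrophages and monocytes. Acta2 (−0.13) and Tagln (−0.08) of the fibroblast and pericyte list were others. Of 5 podocyte markers 0 were called (median 0.71), and of 7 collecting duct markers 0 were called higher and 1 lower (−0.07). The part of these cells in the Vim difference was not tested.

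None of the other 8 markers was called between CCN2 KO IRI and WT IRI kidneys, and the groups overlapped for each, where 17.3% of all genes had separate ranges. Lcn2 came closest, with 1.66 ± 0.63 log2 RPKM (SD, n = 5) in CCN2 KO IRI and 2.64 ± 0.25 (n = 4) in WT IRI kidneys. Its log2 difference was −0.98 (95% confidence interval −1.97 to 0.01, limma adjusted p = 0.171, exact permutation p = 0.0397). Only CCN2 KO IRI kidney 4 reached the lowest WT IRI kidney. Lcn2 passed in 3 of the limma alternatives, without CCN2 KO sham kidney 2 (adjusted p = 0.0362), with a pseudocount of 1 (0.0309) and with these groups alone in the fit (0.0482), while its adjusted p over all limma alternatives ranged from 0.0309 to 0.535. The direction was the same in each.

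Havcr1 averaged 4.89 ± 1.03 log2 RPKM in CCN2 KO IRI and 5.36 ± 0.32 in WT IRI kidneys, a log2 difference of −0.46 (95% confidence interval −1.71 to 0.78, limma adjusted p = 0.625). Sox9 averaged 1.92 ± 1.06 in CCN2 KO IRI and 2.26 ± 0.46 in WT IRI kidneys, a difference of −0.35 (−1.47 to 0.78, adjusted p = 0.694). These intervals reach from about 0.305-fold and 0.361-fold to 1.72-fold for both, so that neither equality nor a difference of moderate size was shown. The intervals of the abundant markers were narrower, at −0.71 to 0.15 for Clu (difference −0.28) and −0.69 to 0.35 for Spp1 (difference −0.17). Sox4 (0.36), Timp1 (0.32) and Cp (0.40) had positive differences, with adjusted p between 0.239 and 0.696. The scatter among CCN2 KO IRI kidneys was in part shared by markers. Kidney 5 was the lowest of its group for Havcr1, Lcn2, Spp1 and Sox9, and kidney 1 the highest for Spp1, Sox9, Sox4 and Timp1.

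**Figure D3:**
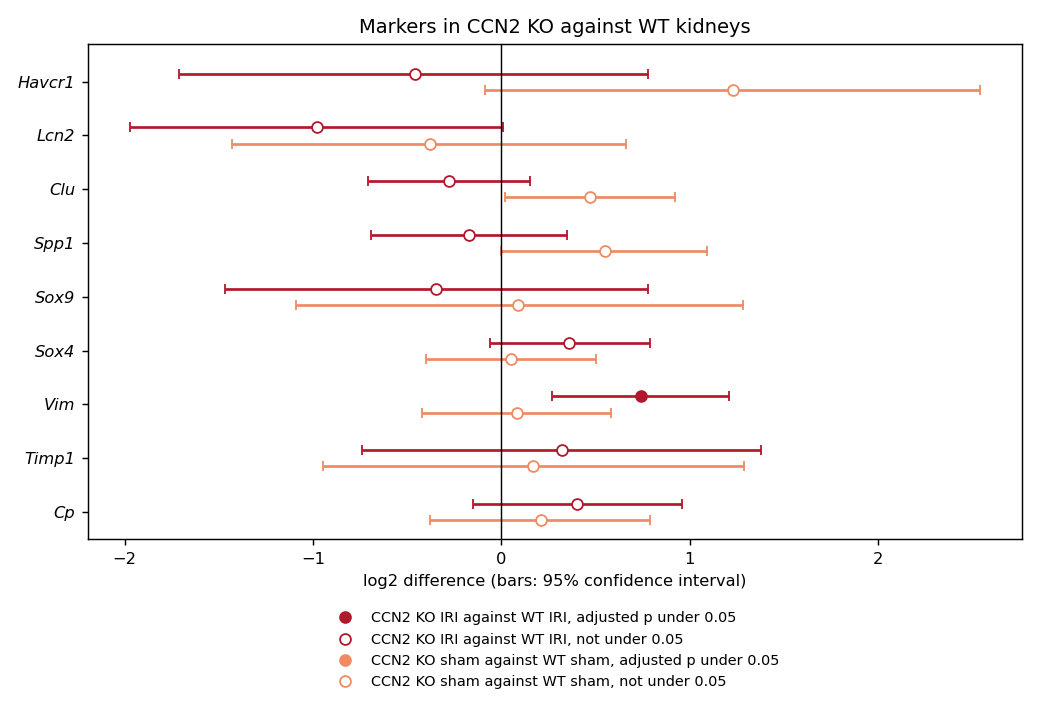
Log2 difference of CCN2 KO against WT kidneys for the 9 markers (x axis), after IRI (red) and after sham surgery (orange), with 95% confidence intervals from limma and filled points where the adjusted p was under 0.05. Vim after IRI, at 0.74, is the sole filled point, and the interval of Lcn2 after IRI ends at 0.01.

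In sham kidneys 0 of the 9 markers were called between the labels, and likewise 0.0% of all genes, although 1640 genes had an unadjusted limma p under 0.05. Of the markers, Clu (log2 difference 0.47, unadjusted p = 0.0434, adjusted p = 0.366) and Spp1 (0.55, unadjusted p = 0.0484, adjusted p = 0.381) were below this level. Their exact permutation p-values were 0.171 and 0.114. Havcr1 averaged −0.60 ± 1.42 log2 RPKM in CCN2 KO sham and −1.82 ± 0.87 in WT sham kidneys (SD, n = 4 each). The difference of 1.23 had an interval of −0.09 to 2.54 and an adjusted p of 0.417. The groups overlapped for each marker, where 4.71% of all genes had separate ranges. CCN2 KO sham kidney 2 was the lowest of its group for Havcr1, Lcn2, Clu, Sox9 and Timp1, and without it 136 genes in all, but still 0 of the markers, were called.

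The difference of the IRI responses was tested directly, as CCN2 KO minus WT. None of the 9 markers passed, beside 0.182% of all genes (23 genes). The values were −1.69 for Havcr1 (95% confidence interval −3.50 to 0.12, limma adjusted p = 0.365), −0.75 for Clu (−1.37 to −0.12, unadjusted p = 0.0217, adjusted p = 0.252), −0.72 for Spp1 (−1.47 to 0.03, adjusted p = 0.353) and −0.60 for Lcn2 (−2.04 to 0.84, adjusted p = 0.719). Vim had 0.66 (−0.02 to 1.35, adjusted p = 0.349), and Sox9, Sox4, Timp1 and Cp lay between −0.44 and 0.31. A call under 1 label and not under the other was therefore not shown to differ. For Havcr1, Clu and Spp1 the sham means as well as the IRI means enter this value, with CCN2 KO sham kidneys higher than WT sham kidneys by 1.23, 0.47 and 0.55 on the log2 scale.

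Other genes of tubular injury and repair moved with the markers. Of 40 listed genes 35 were tested, and 20 were called higher and 0 lower in CCN2 KO IRI against CCN2 KO sham kidneys, with 21 higher and 1 lower in WT IRI against WT sham kidneys. The medians were 1.44 in CCN2 KO and 1.67 in WT kidneys. Among all genes 14.3% were called higher and 13.2% lower in CCN2 KO, and 19.5% higher and 20.3% lower in WT kidneys. Fosl1, an AP-1 subunit, rose by 6.64 on the log2 scale in CCN2 KO and by 7.87 in WT kidneys, and Plaur, the urokinase receptor, by 3.87 in CCN2 KO and 6.43 in WT kidneys. Sprr2f and Sprr2g, small proline-rich proteins of squamous epithelium, rose by 2.93 and 3.15 in CCN2 KO and by 6.29 and 6.24 in WT kidneys. These near-identical genes may share reads. In sham kidneys the means of Fosl1, Sprr2f and Sprr2g were −2.46, −2.68 and −1.44 log2 RPKM under the CCN2 KO label and −1.42, −2.40 and −1.19 under the WT label, below the filter, so that these genes entered the test through the IRI groups. Lif (−2.04 and −1.82) and Ankrd1 (−1.04 and −1.44) were also below the filter under both labels. Atf3 (−0.43) and Sprr1a (−0.22) were below it in CCN2 KO sham kidneys and Plaur (−0.58) in WT sham kidneys. The counts called higher after IRI thus include genes that met the filter chiefly through the IRI groups. In CCN2 KO IRI against WT IRI kidneys 8 of the 35 genes were called lower and 2 higher, with a median of −0.31, beside 5.07% of all genes lower and 7.19% higher. Those lower included Sprr2f (−3.65, SE 0.97, limma adjusted p = 0.0247), Sprr2g (−3.35, SE 0.97, adjusted p = 0.0343) and Fosl1 (−2.27, SE 0.58, adjusted p = 0.0208).

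A list of cytokines, growth factors and transcription factors known to act upstream of such markers held 26 tested genes of 31. Of these, 20 were called higher and 0 lower in CCN2 KO IRI against CCN2 KO sham kidneys, and 21 higher and 1 lower in WT IRI against WT sham kidneys, with medians of 1.25 in CCN2 KO and 2.32 in WT kidneys. Higher were 14.3% of all genes in CCN2 KO and 19.5% in WT kidneys. Areg, which encodes the EGF receptor ligand amphiregulin, averaged 0.66 log2 RPKM in CCN2 KO IRI against −3.08 in CCN2 KO sham kidneys, and 3.41 in WT IRI against −3.32 in WT sham kidneys, where each of the 4 was at the lowest value listed. It entered the test through the IRI groups, and no fold is given. Lif, Fosl1, Fosb and Fos also averaged below the filter in both sham groups. Their means were −2.04, −2.46, −2.94 and −1.06 log2 RPKM in CCN2 KO sham and −1.82, −1.42, −1.94 and −0.43 in WT sham kidneys. The counts called higher after IRI therefore include genes that met the filter chiefly through the IRI groups. Myc rose by 2.23 in CCN2 KO and 4.95 in WT kidneys. Between CCN2 KO IRI and WT IRI kidneys 15 of the 26 were called lower and 1 higher, beside 5.07% of all genes lower and 7.19% higher. Their median log2 difference was −1.10, where the 9 markers had −0.17 and all genes 0.02. Areg differed by −2.75 (SE 0.86, limma adjusted p = 0.0465) and Myc by −1.53 (adjusted p = 0.0368). This list shares Lif and Fosl1 with the other injury genes and none with the markers, and no gene of these lists was called in the difference of the IRI responses. Ctgf, the targeted gene, is among the 26 and was not called between CCN2 KO IRI and WT IRI kidneys (log2 difference −0.35, limma adjusted p = 0.525).

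**Figure D4:**
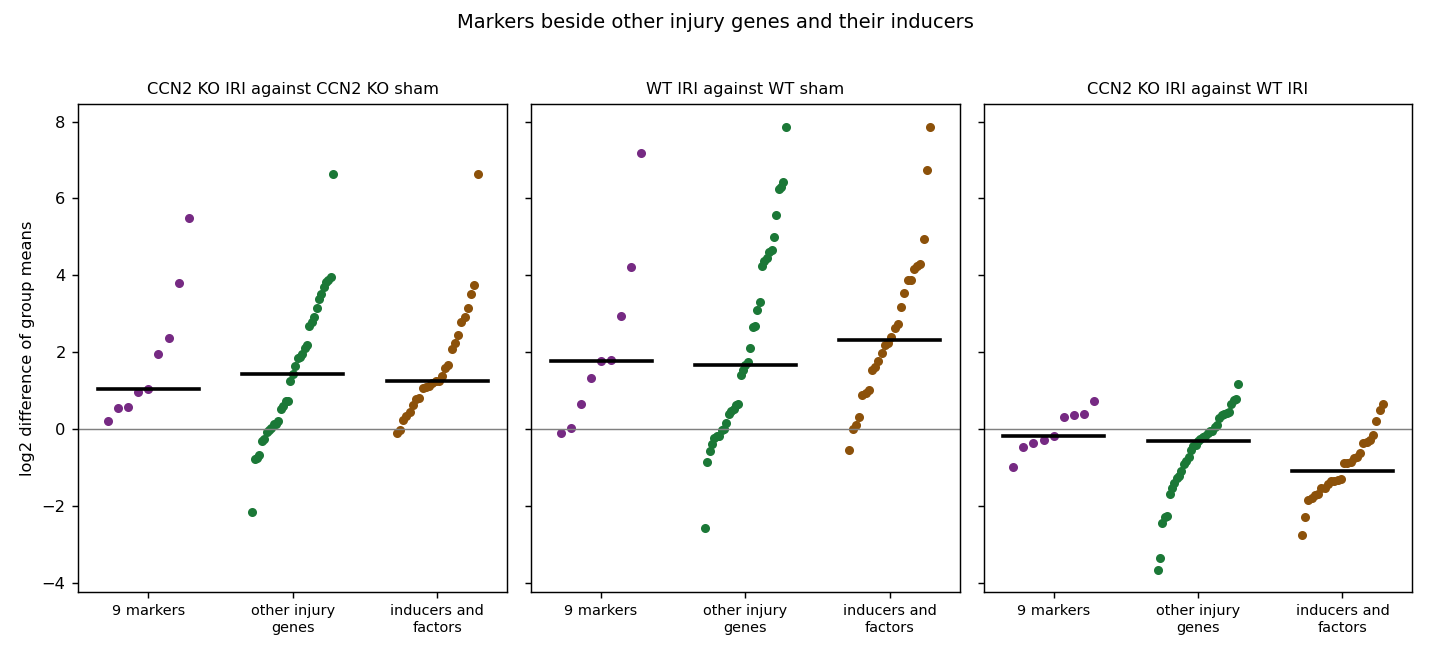
Log2 difference of group means (y axis) for each of the 9 markers, 35 other injury genes and 26 inducers and transcription factors (points), with the median of each list (line), in 3 comparisons. The lists lie mostly above 0 after IRI, and in CCN2 KO IRI against WT IRI kidneys the medians are −0.17, −0.31 and −1.10.

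The next 4 lists are read beside all genes, of which 14.3% were called higher and 13.2% lower in CCN2 KO IRI against CCN2 KO sham kidneys, and 19.5% higher and 20.3% lower in WT IRI against WT sham kidneys. For relatives of the markers, metalloproteinases and iron genes, of which 9 to 14 were tested per list, each count is within a few genes of what these shares would give and is no result about the list as a whole. Receptors and binding partners of the markers changed by smaller amounts than the injury genes. Of 11 tested, 5 were called higher and 1 lower in CCN2 KO IRI against CCN2 KO sham kidneys, and 5 higher and 2 lower in WT IRI against WT sham kidneys. Integrin subunits Itgav and Itga5, which take part in binding osteopontin, rose by 0.75 and 1.09 in CCN2 KO and by 0.79 and 0.78 in WT kidneys. Slc22a17, reported as an NGAL receptor, fell by 0.69 in CCN2 KO and 1.03 in WT kidneys. Timd2, a relative of Havcr1 in the TIM family, rose by 0.63 in CCN2 KO and 1.20 in WT kidneys, and was lower in CCN2 KO IRI kidneys than under the WT label (−0.67, SE 0.18, limma adjusted p = 0.0236).

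Among the families of the markers, 3 of 14 tested relatives were called higher and 0 lower in CCN2 KO IRI against CCN2 KO sham kidneys, and 2 higher and 5 lower in WT IRI against WT sham kidneys. Lmna, a nuclear lamin, rose by 1.13 in CCN2 KO and 1.16 in WT kidneys. The endothelial factors Sox17 and Sox18 differed by −0.52 and −0.68 in CCN2 KO kidneys, which did not pass (limma adjusted p = 0.0791 and 0.0831), and fell by 0.95 and 1.05 in WT kidneys, where Sox9 and Sox4 rose. Timp3, an inhibitor of metalloproteinases like Timp1, was higher in CCN2 KO IRI kidneys than under the WT label (0.86, SE 0.14, adjusted p = 0.00349) and was chosen after its values were seen.

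Of 9 metalloproteinases tested, 3 were called higher and 0 lower in CCN2 KO and 2 higher and 3 lower in WT kidneys after IRI. Adamts1, a secreted proteoglycan-cleaving enzyme, rose by 1.86 in CCN2 KO and 3.31 in WT kidneys, and Mmp19 by 2.60 in CCN2 KO and 1.44 in WT kidneys. Mmp19 averaged below an RPKM of 1 in both sham groups and in WT IRI kidneys. Of 13 tested genes of iron and haem handling, 3 were called higher and 0 lower in CCN2 KO and 2 higher and 1 lower in WT kidneys. Hmox1, the inducible haem oxygenase, rose by 3.69 in CCN2 KO and 5.00 in WT kidneys and the metal importer Slc39a14 by 0.89 in CCN2 KO and 0.84 in WT kidneys. Slc11a2, the iron transporter DMT1, fell by 0.92 in WT kidneys (limma adjusted p = 0.0033) and differed by −0.39 in CCN2 KO kidneys, which did not pass (0.177). Cp, of the same pathway, was not called.

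Across the 17 kidneys, the 7 markers that rose after IRI correlated with each other more closely than with Vim and Cp, and these values include the difference between IRI and sham. Havcr1, Lcn2, Clu, Spp1, Sox9, Sox4 and Timp1 had a Pearson r of 0.69 to 0.94 among themselves. Vim correlated with these at 0.01 to 0.44 and Cp at −0.02 to 0.23, while Vim with Cp had 0.55. After the group means were removed, r was highest for Spp1 with Sox4 (0.82), Clu with Spp1 (0.74) and Spp1 with Sox9 (0.70), and lowest for Clu with Vim (−0.40). Among the 7 markers it ranged from 0.10 to 0.82, and Timp1 had 0.10 with Spp1, 0.16 with Sox4, 0.17 with Clu and 0.21 with Lcn2. The genes share libraries and a common normalization, so these values are a description.

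The named genes whose pattern was most like that of each marker, by Pearson r over the 17 kidneys, were Adss, Vcl and Lims1 for Havcr1 (0.982 to 0.975) and Map3k6, Pwp2 and Psmd11 for Lcn2 (0.959 to 0.957). For Clu they were Mpzl3, Ept1 and Spp1 (0.953 to 0.934), and for Spp1 they were Ept1, Yap1 and Trmt61a (0.964 to 0.951). Sox9 was closest to Sav1, Tars and Iars (0.978 to 0.972) and Sox4 to Myof, Eif4a2 and Mybbp1a (0.904 to 0.886). Timp1 was closest to Cul1, Wapal and Usp9x (0.938 to 0.920). Vim was closest to Nrp2, F2r and Hic1 (0.865 to 0.852) and Cp to Nid1, Lgr4 and Ctns (0.810 to 0.798). These r include the difference between IRI and sham. After removal of the group means, r with the same genes was 0.630 to 0.828 for Havcr1, 0.835 to 0.948 for Lcn2, 0.534 to 0.679 for Sox4, 0.750 to 0.805 for Vim and 0.772 to 0.788 for Cp.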

How the data were processed

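Kidney cortex RNA of 17 mice was examined. Strand-marking libraries were made from poly(A) RNA and read from 1 end over 75 bases. The authors used STAR 2.4.2a (GRCm38), HTSeq 0.6.1p1 and, for RPKM, edgeR, and deposited log2 RPKM values after quantile normalization. The strand setting is not given in the sources used here. Of 30 columns of sample values, 17 carry the titles of labelled samples and the other 13 were not used. Counts were not at hand, so no count model was run and the depth, with the precision it gives, is unknown.

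The deposited log2 values were analysed with limma 3.58.1 in R 4.3.3. Only genes above log2 0 in 4 or more samples entered, 12608 in all. The model had 1 mean per group over all 17 samples (eBayes with a trend), with Benjamini-Hochberg adjustment over these genes and a threshold of 0.05. SE and 95% confidence intervals are limma's, ± values are SD, and permutation tests were exact and two-sided (smallest p 0.0286 for 4 against 4 and 0.00794 for 5 against 4). Kidneys were numbered in accession order within a group. Each sample was taken to be 1 mouse, and p-values measure the spread between these samples.

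The members, gene lists and tests were chosen with earlier results of these data known. All 9 members are named, at most 4 genes of each list, by size of difference among those that passed in WT IRI against WT sham or CCN2 KO IRI against WT IRI, defining markers of cell types, and for each member the 3 genes with the highest r, leaving out predicted genes. Other genes are named where they show low sham means or negative differences, and Ctgf as the targeted gene. Lists of inducers and injury genes hold factors that the study reports on these samples and are no independent evidence. Gene positions are from GENCODE M21 and promoters from RefSeq (GRCm38.p6). Alternatives were tried for the filter, the pseudocount (1), centring, the samples in the fit, the prior variance, sample weights, the title prefix and each sample left out.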

Additional observations from a re-analysis of the deposited data

Results flagged for a closer look

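In the 9 markers and Ctgf over 4 groups, 40 sets of kidneys were examined for a single kidney that stood apart, and 2 were found, where chance alone gives about 1 in 20. Lcn2 in CCN2 KO sham kidneys had its lowest value, −2.65 log2 RPKM, in kidney 2, and the gap to the next kidney made up 0.898 of the range of the group. Sox4 in WT sham kidneys had its highest value, 1.76 log2 RPKM, in kidney 4, with a gap of 0.862 of the range.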

How the results depend on the processing

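Under every alternative run, Havcr1, Lcn2, Spp1 and Sox9 stayed higher after IRI under both labels and passed in limma. Clu passed in CCN2 KO kidneys in 11 of 25 limma alternatives, and in WT kidneys Sox4 passed in 20 of 25 and Timp1 in 23 of 24. In CCN2 KO IRI against WT IRI kidneys 1 marker, Vim, was called, against 0 with no filter, 0 with no trend in the prior variance and 2 (Lcn2 and Vim) with a pseudocount of 1, and 0 to 2 when 1 kidney was left out. With these groups alone in the fit the 1 called was Lcn2 instead. With the stricter filter Timp1 and Cp could not be tested. The cause of these changes was not tested.

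Signs turned only in differences that did not pass. With sample weights these were Vim (0.04) in WT IRI against WT sham kidneys, Cp (−0.07) in CCN2 KO IRI against CCN2 KO sham kidneys, Spp1 (0.0) in CCN2 KO IRI against WT IRI kidneys, Sox4 (−0.02) in CCN2 KO sham against WT sham kidneys, and Timp1 (−0.08) and Cp (−0.09) in the difference of the responses. With title prefix 33 alone they were Cp in WT IRI against WT sham (−0.07) and in CCN2 KO IRI against CCN2 KO sham kidneys (−0.35), Sox9 (−0.13) and Sox4 (−0.06) in sham kidneys, and Timp1 (−0.71) and Cp (−0.27) in the difference of the responses. When 1 kidney was left out, the range was −0.26 to 0.19 for Vim and −0.08 to 0.12 for Cp in WT IRI against WT sham kidneys, and −0.08 to 0.50 for Cp in CCN2 KO IRI against CCN2 KO sham kidneys. In sham kidneys it was −0.64 to 0.27 for Lcn2, −0.36 to 0.44 for Sox9, −0.04 to 0.18 for Vim, −0.14 to 0.77 for Timp1 and −0.08 to 0.51 for Cp. In the difference of the responses it was −0.84 to 0.01 for Sox9, −0.45 to 0.47 for Timp1 and −0.11 to 0.48 for Cp.

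Over all genes, 3463 were called in CCN2 KO IRI against CCN2 KO sham kidneys, but 2199 with no filter and 2122 with prefix 33 alone. In CCN2 KO IRI against WT IRI kidneys 1546 were called, but 473 with no filter, 3118 with sample weights and 349 to 1856 with 1 kidney left out. In sham kidneys 0 became up to 6 with other settings and up to 136 with 1 kidney left out, and the 23 of the difference of the responses became 3 to 231 and 7 to 78. No paired analysis was possible because kidneys were numbered in accession order and the labels give no number that links mice of different groups.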
